A study of Homo sapiens with 4 samples.

Results

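The genes described here are antisense RNAs that carry the name of a neighbouring host gene followed by -AS1. They were taken from the gene count table by symbol, and a gene was kept if it had 30 or more counts in each of the 4 libraries. Of the 1649 genes whose symbol ends in -AS1, 211 met that limit, out of 62700 genes in the table and 12850 genes of any kind that met it. The genes were thus selected on their count levels, and the levels are given as a description. The labelled against unlabelled comparison was not used to choose them. The limit was hardest to meet in unlabelled replicate 2, the library with the fewest assigned fragments.

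RNA was sequenced from HEK293T cells, an established human embryonic kidney line, of the genotype CMV-V5-MITO-PRADA. These are stable cells, described by the submitters as a clonal derivative, that express a V5-tagged PRADA construct placed in the mitochondrial matrix; the genotype name carries CMV, a viral promoter. All 4 libraries came from cells given 100 µM s4U, a uridine analogue that cells incorporate into newly made RNA, for 5 h, and then 0.5 mM alkyne phenol together with s4U for 30 min. The labelled group (2 libraries) then received 10 mM D-amino acid for 30 min, which starts the labelling reaction, and the unlabelled group (2 libraries) was left without D-amino acid. The design text calls the material labelled and enriched, and ribosomal RNA was depleted. Xenograft material was not analysed here.

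A natural antisense RNA is transcribed from the strand opposite to another gene. It may start beside the promoter of its host and run away from it, meet the host tail to tail, or lie within the host's body. Many antisense RNAs are long non-coding RNAs that stay in the nucleus, and some act on their host's transcription or on other RNAs. The name is given for position alone and says nothing of a role.

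Promoter windows were read from RefSeq on GRCh38.p14, and each runs from 250 bases before to 50 bases after a start. The windows shown are those of VPS9D1-AS1 and LYRM4-AS1, with high fold changes in the labelled libraries, of HERPUD2-AS1 and its host HERPUD2, which share 170 bases and had fold changes of like size, and of OIP5-AS1, the antisense RNA with the most counts. They lie at chr16:89711606-89711905 (plus strand), chr6:5003566-5003865 (plus), chr7:35694956-35695255 (plus), chr7:35695086-35695385 (minus) and chr15:41283740-41284039 (plus). Each is written 5′ to 3′ on its gene's strand. The windows were chosen after the values of these genes were seen, and none of these genes passed the test between labelled and unlabelled libraries. Capitals mark GGGCGG or its reverse complement CCGCCC (a GC box) and CCAAT or its reverse complement ATTGG. No marked motif overlaps another in these windows, and none of them holds TATAAA or TGACGTCA on either strand.
VPS9D1-AS1: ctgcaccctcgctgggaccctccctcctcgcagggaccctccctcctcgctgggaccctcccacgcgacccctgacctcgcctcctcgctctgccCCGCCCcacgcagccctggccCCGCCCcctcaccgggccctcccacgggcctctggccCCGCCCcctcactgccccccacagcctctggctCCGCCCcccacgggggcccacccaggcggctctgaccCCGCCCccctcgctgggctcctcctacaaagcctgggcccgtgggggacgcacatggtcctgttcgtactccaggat
LYRM4-AS1: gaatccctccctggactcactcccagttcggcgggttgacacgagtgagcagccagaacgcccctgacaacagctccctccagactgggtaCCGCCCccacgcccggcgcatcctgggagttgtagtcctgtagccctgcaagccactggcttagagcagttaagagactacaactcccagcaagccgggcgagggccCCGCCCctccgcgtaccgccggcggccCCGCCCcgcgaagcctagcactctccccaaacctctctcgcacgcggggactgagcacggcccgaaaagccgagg
HERPUD2-AS1: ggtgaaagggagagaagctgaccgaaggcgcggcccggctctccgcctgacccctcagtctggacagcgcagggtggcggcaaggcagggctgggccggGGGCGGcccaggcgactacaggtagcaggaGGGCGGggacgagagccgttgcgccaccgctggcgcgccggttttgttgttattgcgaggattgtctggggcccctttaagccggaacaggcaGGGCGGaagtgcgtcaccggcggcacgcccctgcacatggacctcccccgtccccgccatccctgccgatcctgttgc
HERPUD2: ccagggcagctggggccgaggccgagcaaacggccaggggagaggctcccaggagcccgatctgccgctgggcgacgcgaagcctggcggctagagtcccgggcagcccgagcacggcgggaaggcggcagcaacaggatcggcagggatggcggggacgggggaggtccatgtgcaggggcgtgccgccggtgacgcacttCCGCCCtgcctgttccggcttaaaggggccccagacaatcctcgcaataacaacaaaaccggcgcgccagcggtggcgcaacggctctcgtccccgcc
OIP5-AS1: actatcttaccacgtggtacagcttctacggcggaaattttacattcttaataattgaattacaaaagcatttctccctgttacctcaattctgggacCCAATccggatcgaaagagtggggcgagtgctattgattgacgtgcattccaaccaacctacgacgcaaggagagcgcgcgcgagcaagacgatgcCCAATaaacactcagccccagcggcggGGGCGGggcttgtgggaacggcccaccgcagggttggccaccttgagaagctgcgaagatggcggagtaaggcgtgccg
The RefSeq starts of these 4 antisense RNAs lie between 0 and 42 bases from the outermost starts in the count table, whereas the RefSeq start of HERPUD2 lies 2324 bases from its outermost start there. The VPS9D1-AS1 window holds 5 GC boxes, all on the opposite strand.

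The libraries held 9380258 and 12287451 assigned fragments in the labelled group, against 8172347 and 5771795 in the unlabelled group. Genes of the mitochondrial chromosome took 27.0% and 30.9% of the assigned fragments in the labelled libraries, against 9.04% and 10.4% in the unlabelled libraries. The HEK293T markers VIM and LIN28B were present in every library, at 154 to 171 and 120 to 121 counts per 1000000 assigned fragments (CPM) in labelled libraries and at 206 to 237 and 129 to 142 in unlabelled libraries. The other HEK293T markers listed were lower over the 4 libraries. KRT18 had 21 to 30.6 CPM, NEFL, INA, KRT8 and PAX2 lay between 4.64 and 18.2 CPM, and NEFM had only 0.489 to 2.12 CPM. Of 4 blood cell markers, HBB and CD3E had no count in any library, HBA1 had 0.853 and 0.570 CPM in labelled and 0.122 and 1.56 CPM in unlabelled libraries, and PTPRC had 0 in both labelled and 0.122 and 0.173 CPM in unlabelled libraries. Of the fibroblast and endothelial markers, COL1A1 had 18.8 and 16.8 CPM in labelled and 21.3 and 13.5 CPM in unlabelled libraries, and COL3A1, PECAM1 and VWF lay between 0 and 1.47 CPM in all 4. Unlabelled replicate 2 stood apart from the other 3 libraries: 47.9% of its uniquely placed fragments touched no annotated exon, against 33.1% and 31.0% in the labelled libraries and 37.8% in unlabelled replicate 1. In unlabelled replicate 2 the RN7SL genes also took 2.89% of assigned fragments, against 1.05% and 1.08% in the labelled libraries and 1.64% in unlabelled replicate 1.

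Together they took 2932 and 2720 CPM of the assigned fragments in the labelled libraries (95% Wilson intervals 2897 to 2966 and 2691 to 2749), against 3476 and 4336 in the unlabelled libraries (3436 to 3516 and 4282 to 4389). Unlabelled replicate 2 was the highest and both labelled libraries were the lowest. With the mitochondrial fragments left out of the total, the same sums were 4015 and 3936 CPM in the labelled libraries, against 3821 and 4840 in the unlabelled libraries. The groups then overlapped, and only unlabelled replicate 2 stood above the rest. These intervals cover counting error only.

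At the limit itself, 30 counts have an exact 95% Poisson interval of 20.2 to 42.8. The genes just inside it were MYLK-AS1, with 30 and 40 counts in labelled and 34 and 38 in unlabelled libraries, RBM38-AS1, with 42 and 68 against 57 and 30, and RPL30-AS1, with 45 and 73 against 44 and 30. The genes just outside it were HSD17B1-AS1, with 39 and 39 counts in labelled and 30 and 29 in unlabelled libraries, NDUFV2-AS1, with 29 and 32 against 41 and 39, and ST20-AS1, with 49 and 59 against 47 and 29. HSD17B1-AS1 and ST20-AS1 missed the limit only in unlabelled replicate 2, and NDUFV2-AS1 only in labelled replicate 1. Near the limit, genes with higher values in unlabelled replicate 2 were thus favoured. Of the 1438 -AS1 genes below the limit, 328 had no count at all and 1110 had some. The limit also ensured that all 211 genes passed the filter on low counts and were tested.

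None of the 211 antisense RNAs passed the test between labelled and unlabelled libraries (edgeR quasi-likelihood test, Benjamini-Hochberg adjustment over 18973 genes, threshold 0.05), and the smallest adjusted p was 0.234. DESeq2 also called 0. Over all genes tested, edgeR called 0.269% higher and 0.0158% lower in labelled libraries, and DESeq2 called 0.422%. At an unadjusted p under 0.05, edgeR counted 25 antisense RNAs (11.8%), against 11.5% of all genes, and DESeq2 counted 15, against 5% of all genes. Of those 25, 6 had higher and 19 had lower values in labelled libraries, beside 5.67% and 5.88% of all genes. The libraries are called biological replicates in the labels without more detail on how the cultures were kept apart. The p-values therefore speak only of the variation among these 4 libraries, which may be technical.

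The fold changes were small and leaned to the unlabelled side with all 4 libraries, but not without unlabelled replicate 2. The median log2 fold change, labelled over unlabelled, was -0.11 for the antisense RNAs (quartiles -0.30 and 0.08, range -0.94 to 0.73) and -0.01 for all genes tested. It was 0.01 for the 207 tested host genes and 0.02 for all 12850 genes with 30 or more counts in each library. A positive value was found for 76 antisense RNAs (36.0%), against 48.0% of all genes. Most were close to 0: 193 lay within 0.5 of it, 15 at or under -0.5 and 3 at or over 0.5. The median standard error was 0.23 for the antisense RNAs and 0.19 for all genes. The 2 libraries of each group did not overlap for 80 of the 211 (37.9%), with the labelled pair higher for 24 and lower for 56, beside 22.2% and 22.4% of all genes.

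**Figure D1:**
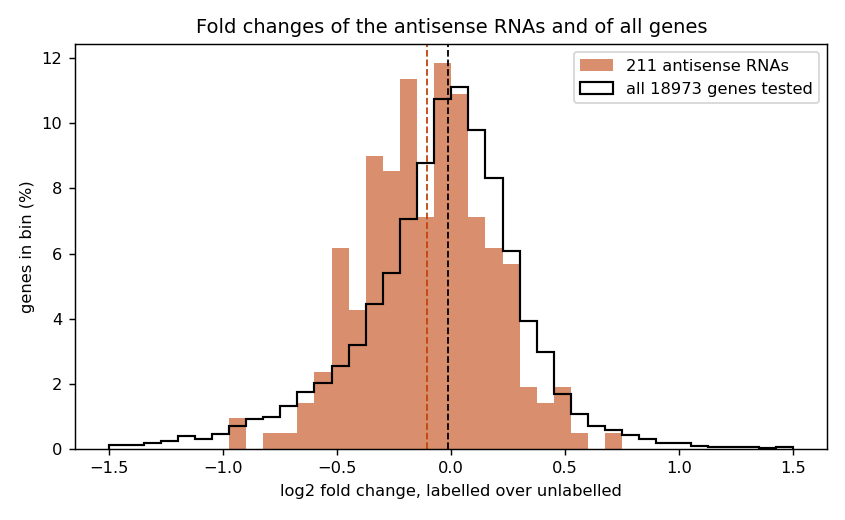
Log2 fold change, labelled over unlabelled, on the x axis, and percent of genes per bin on the y axis, for the 211 antisense RNAs (filled) and all 18973 genes tested (black outline). Dashed lines mark the medians, -0.11 and -0.01; 137 genes beyond 1.5 in either direction are outside the plotted range.

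The lean rested on unlabelled replicate 2. Measured as log2(CPM + 0.5) minus each gene's own mean over the 4 libraries, with CPM now TMM-scaled, as in all that follows, the median antisense RNA stood at -0.04 and -0.06 in the labelled libraries. It stood at -0.07 in unlabelled replicate 1 and at 0.15 in unlabelled replicate 2. Unlabelled replicate 1 therefore sat with the labelled libraries and below them, and only unlabelled replicate 2 was high. The host genes stood between -0.01 and 0.01 in every library. All 12850 genes that met the same count limit stood at -0.03 in unlabelled replicate 2. Without unlabelled replicate 2 the median log2 fold change of the antisense RNAs was 0.01 and 51.2% were positive, and without unlabelled replicate 1 it was -0.17. The part that the high share of fragments outside exons in unlabelled replicate 2 has in this was not tested. The antisense RNAs were also selected partly on their counts in that library. Near the limit, this favoured genes with higher values there. The part of this selection in the value of 0.15 was not tested. The design text calls this bulk RNA labelled and enriched. Fewer cells that express a gene, less RNA per cell and less RNA recovered cannot be told apart.

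**Figure D2:**
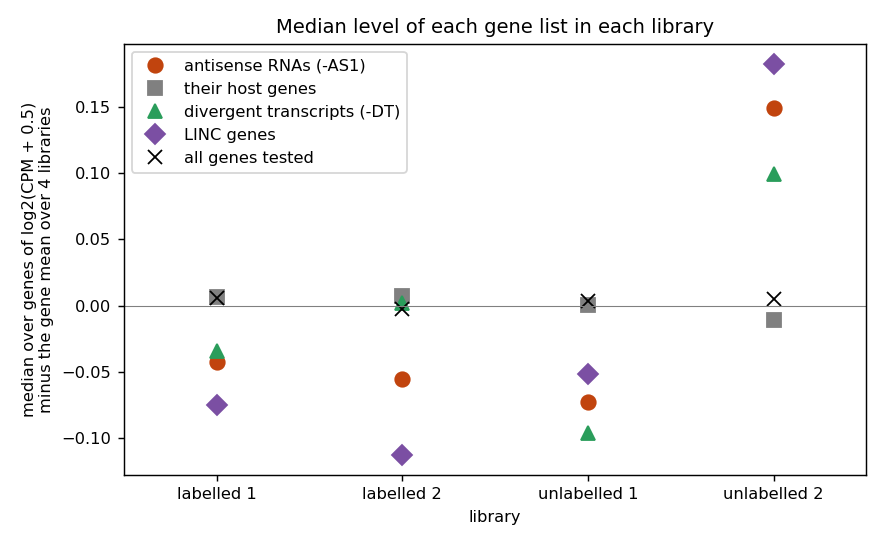
Median over the genes of each list (y axis, log2(CPM + 0.5) minus the gene's mean over the 4 libraries) in each library (x axis), for the antisense RNAs, their hosts, divergent transcripts, LINC genes and all genes tested. The antisense RNAs sit at 0.15 and the LINC genes at 0.18 in unlabelled replicate 2 and below 0 in the other 3 libraries, while hosts and all genes stay near 0.

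Among the antisense RNAs with the highest fold changes, VPS9D1-AS1 (chr16:89711856-89718165, plus strand), also known as MYU and described as a target of MYC, was by far the most abundant. It had 85.5 and 89.3 CPM in labelled libraries, against 68.6 and 53.4 CPM in unlabelled libraries. Both labelled libraries were above both unlabelled ones, and the log2 fold change was 0.51 ± 0.14 (SE; edgeR adjusted p = 0.245). Its host VPS9D1, within whose span it lies, had 18.7 and 17.0 CPM in labelled and 19.4 and 21.7 CPM in unlabelled libraries, a log2 fold change of -0.20. The antisense RNA and its host thus had fold changes of opposite sign, neither past the threshold, and 29.6% of the exon bases of VPS9D1-AS1 overlap exons of VPS9D1.

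LYRM4-AS1 (chr6:5003774-5045666, plus strand) had the highest fold change of all. It is named after LYRM4, a factor of mitochondrial iron-sulfur cluster assembly, but lies 57962 bases from it. It had 10.5 and 10.5 CPM in labelled libraries, against 6.01 and 6.64 CPM in unlabelled libraries, a log2 fold change of 0.73 ± 0.22 (SE; edgeR adjusted p = 0.290). The groups did not overlap, and LYRM4 itself had 22.3 and 24.1 CPM in labelled and 27.3 and 22.2 CPM in unlabelled libraries.

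CLN8-AS1, inside the gene of the endoplasmic reticulum protein CLN8, had 9.68 and 10.9 CPM in labelled and 6.79 and 6.79 CPM in unlabelled libraries, with a log2 fold change of 0.60. GAS5-AS1, inside the snoRNA host gene GAS5, had 9.56 and 12.4 CPM in labelled and 6.79 and 9.05 CPM in unlabelled libraries (0.49). OTUD6B-AS1, head to head with a deubiquitinase gene, had 32.3 and 41.1 CPM in labelled and 23.6 and 29.3 CPM in unlabelled libraries (0.49). In each of these 3 genes both labelled libraries were above both unlabelled ones, and the edgeR adjusted p was 0.347, 0.451 and 0.310 in that order. HERPUD2-AS1 had 10.5 and 10.8 CPM in labelled and 7.35 and 7.997 CPM in unlabelled libraries (0.48, adjusted p = 0.422). Its host HERPUD2, whose promoter window overlaps that of HERPUD2-AS1, had 25.4 and 28.4 CPM in labelled and 20.7 and 19.2 CPM in unlabelled libraries (0.43, adjusted p = 0.313). In this pair both genes were higher in both labelled libraries.

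**Figure D3:**
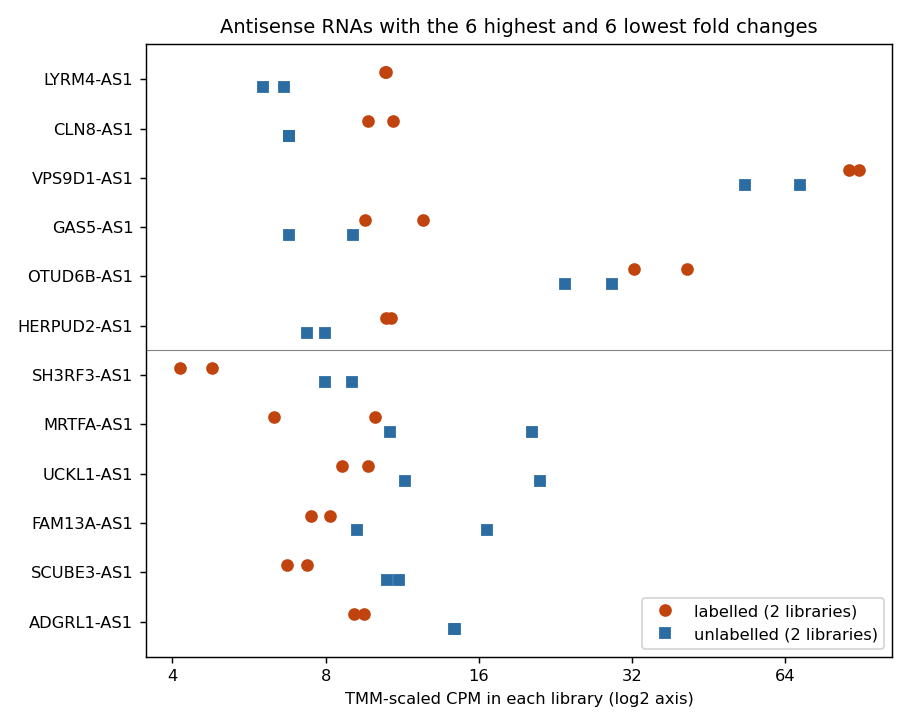
TMM-scaled CPM in each library (x axis, log2 scale) for the 6 antisense RNAs with the highest (above the line) and the 6 with the lowest (below it) log2 fold change. Circles are the 2 labelled and squares the 2 unlabelled libraries; the groups do not overlap in any of the 12 genes, which were chosen for their fold change, and none passed the test.

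At the other end, SH3RF3-AS1 (chr2:109127327-109128930, minus strand), head to head with the ubiquitin ligase gene SH3RF3, had 4.78 and 4.14 CPM in labelled libraries, against 9.02 and 7.997 CPM in unlabelled libraries. Both labelled libraries were the lower ones, and the log2 fold change of -0.94 ± 0.25 (SE) was the lowest of all (edgeR adjusted p = 0.234). SH3RF3 itself had 39.5 and 38.6 CPM in labelled and 42.8 and 33.0 CPM in unlabelled libraries, and its groups overlapped. SCUBE3-AS1, inside a gene for a secreted protein, had 7.35 and 6.73 CPM in labelled and 11.1 and 10.6 CPM in unlabelled libraries (log2 fold change -0.63, adjusted p = 0.316). ADGRL1-AS1, tail to tail with the latrophilin gene ADGRL1, had 9.10 and 9.52 CPM in labelled and 14.4 and 14.3 CPM in unlabelled libraries (-0.62, adjusted p = 0.290). In SCUBE3-AS1, ADGRL1-AS1 and SH3RF3-AS1 the 2 unlabelled libraries were close to each other.

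The other 3 genes of the low end differed in this. MRTFA-AS1, inside the gene of a coactivator of serum response factor, had 10.0 and 6.35 CPM in labelled and 10.7 and 20.4 CPM in unlabelled libraries (-0.91). UCKL1-AS1, head to head with a uridine kinase-like gene, had 8.63 and 9.72 CPM in labelled and 11.5 and 21.1 CPM in unlabelled libraries (-0.80). FAM13A-AS1, tail to tail with FAM13A, had 8.16 and 7.50 CPM in labelled and 9.24 and 16.6 CPM in unlabelled libraries (-0.70). In all 3 unlabelled replicate 1 was close to the labelled libraries and unlabelled replicate 2 was high, and the edgeR adjusted p was 0.312, 0.310 and 0.369 in that order. Without labelled replicate 1 the log2 fold change of MRTFA-AS1 was -1.25. With no filter on low counts MRTFA-AS1 and UCKL1-AS1 were called (edgeR adjusted p = 0.00706 and 0.0302).

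The choice of unlabelled library decided how many antisense RNAs were called. Without unlabelled replicate 1, edgeR called 46 (4 higher and 42 lower in labelled libraries), beside 11.6% of all genes higher and 7.37% lower. Without unlabelled replicate 2 it called 8 (5 higher and 3 lower), beside 2.06% and 2.55% of all genes. In both fits the lone unlabelled library is assumed to vary like the labelled ones. The fits share both labelled libraries, so their calls are not independent. Antisense RNAs called in both fits numbered 7, beside 2.26% of all genes tested in both, and 6 of the 7 had the same direction in both, beside 427 of 446 over all genes: LYRM4-AS1, OTUD6B-AS1 and VPS9D1-AS1 higher, and SH3RF3-AS1, ADGRL1-AS1 and PPM1F-AS1 lower in labelled libraries. The other, SLC16A1-AS1, had 81.0 and 81.2 CPM in labelled and 64.6 and 103 CPM in unlabelled libraries, so that its log2 fold change was -0.31 without unlabelled replicate 1 and 0.33 without unlabelled replicate 2. PPM1F-AS1 (chr22:21938269-21977632, plus strand), with 37876 exon bases the longest of the 211, had 23.4 and 25.4 CPM in labelled and 33.2 and 35.8 CPM in unlabelled libraries, a log2 fold change of -0.49 ± 0.13 (SE; edgeR adjusted p = 0.234 with all 4 libraries). PPM1F-AS1 and SLC16A1-AS1 are named after their values were seen.

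Levels of different genes are compared here as CPM per kb of exon, averaged over the 4 libraries. The antisense RNAs ranged between 0.331 (C21orf62-AS1) and 42.3 (VPS9D1-AS1) CPM per kb, with a median of 2.20, and 13 reached 10 while 31 stayed under 1. After VPS9D1-AS1 came EMC3-AS1 at 19.9 and WNT5A-AS1 at 15.8 CPM per kb, both short RNAs (534 and 500 exon bases) inside the genes of a subunit of the endoplasmic reticulum membrane protein complex and of a Wnt ligand. EMC3-AS1 had 10.7 and 7.98 CPM in labelled and 11.2 and 12.5 CPM in unlabelled libraries, and WNT5A-AS1 had 7.23 and 9.23 CPM in labelled and 7.46 and 7.69 CPM in unlabelled libraries. Labelled libraries were the lower ones for EMC3-AS1, with a log2 fold change of -0.35, and the groups overlapped for WNT5A-AS1. FGD5-AS1, THAP9-AS1 and SLC16A4-AS1 had 11.9 CPM per kb each, GAS5-AS1 11.6, MRPL20-AS1 11.2, SMARCA5-AS1 11.02 and THUMPD3-AS1 10.7. For these genes log2 fold changes were -0.07 (FGD5-AS1), 0.11 (THAP9-AS1), -0.33 (SLC16A4-AS1), 0.15 (MRPL20-AS1), 0.22 (SMARCA5-AS1) and -0.01 (THUMPD3-AS1), and none passed the test.

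SLC16A4-AS1 and its host, a gene of the monocarboxylate transporter family, had fold changes of the same sign. The antisense RNA had 30.9 and 29.1 CPM in labelled and 34.7 and 40.6 CPM in unlabelled libraries. SLC16A4 had 22.0 and 22.4 CPM in labelled and 23.9 and 39.8 CPM in unlabelled libraries, a log2 fold change of -0.50. Both genes were highest in unlabelled replicate 2. THUMPD3-AS1, which contains the gene of a tRNA methyltransferase, had 102 and 102 CPM in labelled and 85.5 and 120 CPM in unlabelled libraries. The labelled libraries lay between the 2 unlabelled ones, while THUMPD3 had 64.7 and 66.3 CPM in labelled and 52.0 and 45.4 CPM in unlabelled libraries, or 0.42 on the log2 scale (edgeR adjusted p = 0.290).

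All 211 host genes were found in the table, each on the same chromosome as its antisense RNA and on the opposite strand, and 190 hosts had 30 or more counts in each library. By the table's coordinates, 98 antisense RNAs were head to head with the host (starts within 1000 bases, or bodies overlapping at the 5′ ends). Of the others, 50 were tail to tail, 33 lay inside the host and 28 contained it. The last 2 (FOXD2-AS1 and LYRM4-AS1) did not overlap the host and started more than 1000 bases from its start. Some head to head pairs did not overlap either, such as SH3RF3-AS1, with 274 bases between it and SH3RF3. Median exon length was 4192 bases for head to head, 6232 for tail to tail, 2314 for inside and 6767 for containing arrangements, and 4800 over all. Exon bases were shared with host exons in 156 pairs, and 37 antisense RNAs shared no exon base with any gene. The counts carry no strand, and fragments that touch 2 genes stay unassigned, so reads of an antisense RNA and of a host intron or unspliced host cannot be told apart. At 6.18% and 6.22% in labelled and 7.05% and 6.68% in unlabelled libraries, such unassigned fragments took a similar share of the uniquely placed ones. Per 100 assigned fragments they numbered 10.2 and 9.92 in labelled and 12.8 and 14.7 in unlabelled libraries.

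Among the arrangements with more than 2 pairs, the lean to the unlabelled side was smallest in head to head pairs. Median log2 fold change was -0.04 for the 98 head to head antisense RNAs (41 positive) and 0.06 for their hosts. It was -0.19 for the 50 tail to tail antisense RNAs (13 positive), -0.13 for the 33 inside the host (12 positive) and -0.19 for the 28 that contain it (8 positive), with hosts at -0.03, -0.07 and -0.08 in that order. Without unlabelled replicate 2 the antisense medians were 0.03 head to head, -0.07 tail to tail, 0.06 inside and 0.02 containing the host. Tail to tail was then still the lowest, while head to head was no longer the highest. The differences between these classes were not tested. In unlabelled replicate 2 the median stood 0.08 above the gene mean in head to head pairs, against 0.18 in tail to tail, 0.25 in inside and 0.25 in containing arrangements. The 37 antisense RNAs that share no exon base with another gene had a median log2 fold change of -0.09, with 11 positive. Antisense RNAs longer than the median exon length had a median of -0.12 (30 of 105 positive), and the others -0.05 (46 of 106 positive).

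Across the 207 pairs in which both genes were tested, the fold changes of antisense RNA and host had Spearman's rho of 0.18 and the same sign in 106 pairs. This correlation is across genes, which share the same 4 libraries and are not replicates.

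**Figure D4:**
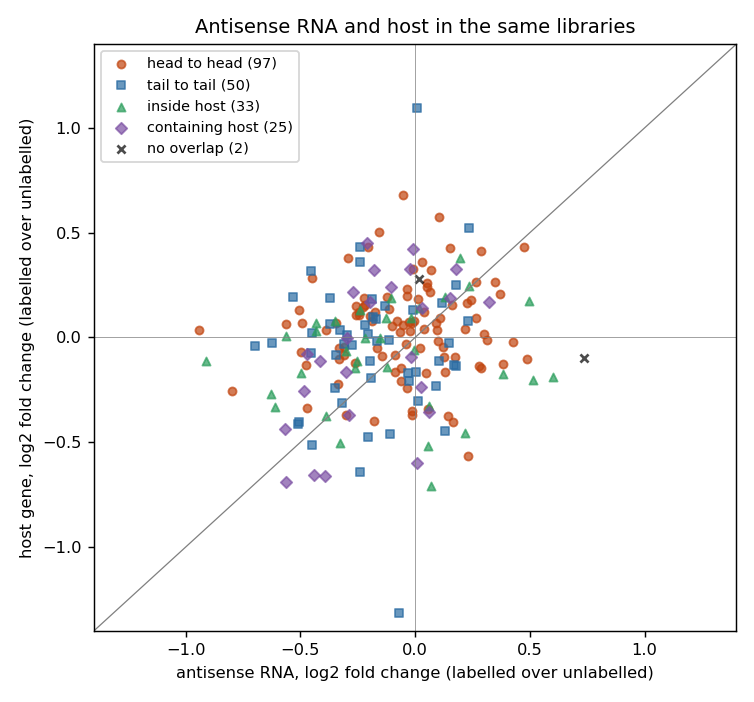
Log2 fold change, labelled over unlabelled, of each antisense RNA (x axis) and its host (y axis) in the 207 pairs with both genes tested, by arrangement. The points form a round cloud about 0 with a Spearman's rho of 0.18, and the grey diagonal marks equal fold changes.

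Within a library, the ratio of antisense RNA to host needs no scaling to library size. The median log2 ratio of counts, with 0.5 added to each, was -1.78 and -1.75 in labelled libraries, against -1.76 and -1.49 in unlabelled libraries. Unlabelled replicate 1 matched the labelled libraries and unlabelled replicate 2 was higher. The labelled minus unlabelled difference had a median of -0.12 over the 211 pairs (quartiles -0.33 and 0.15) and was negative in 132 and positive in 79. Without unlabelled replicate 2 the median difference was 0.02.

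Per kb of exon, the host was the higher gene in all 4 libraries in 135 of the 190 pairs with a host of 30 or more counts, the antisense RNA was higher in all 4 in 33, and the order varied in 22. The median log2 ratio per kb was -1.51 and -1.63 in labelled libraries, against -1.51 and -1.28 in unlabelled libraries. The count limit removes the lowest antisense RNAs, so these ratios describe only the more abundant ones. EPB41L4A-AS1, which holds the snoRNA gene SNORA13, stood at the top with log2 ratios of 2.91 and 2.92 in labelled and 3.07 and 3.13 in unlabelled libraries. VPS9D1-AS1 followed with 3.13 and 3.32 in labelled and 2.75 and 2.23 in unlabelled libraries, and for it the labelled libraries were the higher ones. SGSM3-AS1 and THAP9-AS1 averaged 2.37 and 1.97 over the 4 libraries.

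At the bottom stood TUBA1B-AS1, which contains the alpha-tubulin gene TUBA1B, with -6.28 and -6.04 in labelled and -6.79 and -5.14 in unlabelled libraries. TUBA1B itself had 343 and 319 CPM in labelled and 468 and 322 CPM in unlabelled libraries, while TUBA1B-AS1 had 5.71 and 6.25 CPM in labelled and 5.46 and 11.8 CPM in unlabelled libraries. The groups overlapped for both genes, and the high value of TUBA1B-AS1 was again that of unlabelled replicate 2. NR2F2-AS1, head to head with a nuclear receptor gene, averaged -5.35, and STARD7-AS1, head to head with a lipid transfer protein gene, averaged -4.95. Antisense RNAs inside their host were nearest to it in level, with a median log2 ratio per kb of -0.27, against -1.83 head to head, -1.50 tail to tail and -1.32 where they contain it. The counts carry no strand, so fragments of unspliced host RNA can add to the counts of such an antisense RNA. Exon lengths also include bases shared with the host, whose fragments stay unassigned. The size of either effect on these levels was not tested.

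**Figure D5:**
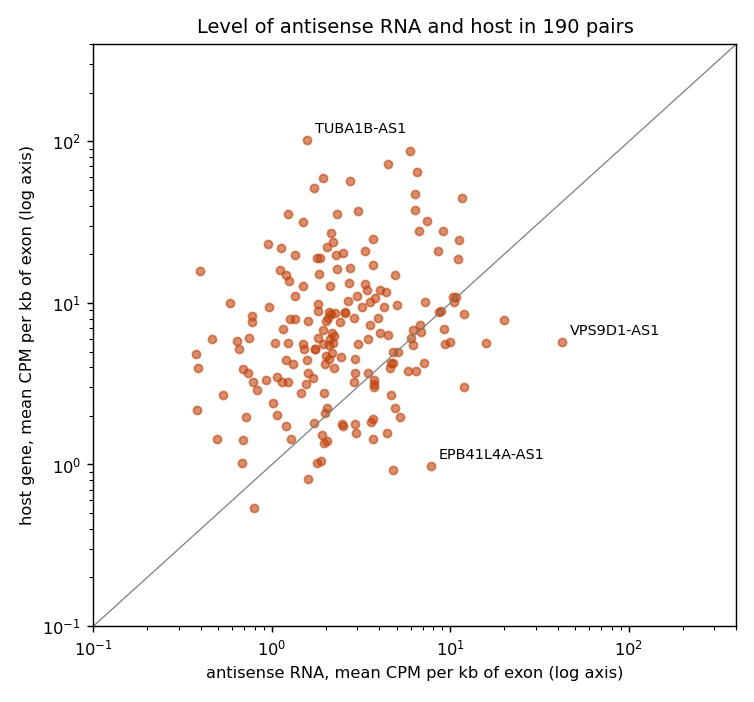
Mean CPM per kb of exon over the 4 libraries for the antisense RNA (x axis, log scale) and its host (y axis, log scale) in the 190 pairs with a host of 30 or more counts. Points above the grey line of equal level are pairs with the higher host; VPS9D1-AS1 and EPB41L4A-AS1 lie below it and TUBA1B-AS1 lies far above it.

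Of pairs whose groups did not overlap, the 6 with the largest shifts in the antisense to host ratio included 3 with few host counts. C10orf95-AS1 had 224 and 302 counts in labelled and 208 and 157 in unlabelled libraries, but its host C10orf95 had 2 and 1 in labelled and 4 and 6 in unlabelled libraries. The difference of 2.01 on the log2 scale was 1.13 with 5 in place of 0.5 added to each count. OIP5-AS1, the RNA also called cyrano that is known for triggering the decay of the microRNA miR-7, had 982 and 1247 counts in labelled and 958 and 842 in unlabelled libraries. Scaled for library size it had 115 and 120 CPM in labelled and 107 and 127 CPM in unlabelled libraries, and its groups overlapped. Its host OIP5, a gene for a centromere protein, had 14 and 17 counts in labelled and 10 and 2 in unlabelled libraries, which gave a difference of -1.34. That difference was -0.70 with 5 added to each count and -0.39 without unlabelled replicate 2, in which OIP5 had 2 counts. FGD5-AS1 had 602 and 733 counts in labelled and 721 and 446 in unlabelled libraries, and its host FGD5 had 6 and 3 in labelled and 12 and 7 in unlabelled libraries (difference 1.25, and 0.83 with 5 added to each count). Without labelled replicate 2 the FGD5-AS1 difference was 0.66. Exons of the antisense RNA cover 1276 of the 1469 exon bases of C10orf95, 759 of the 1201 of OIP5 and 176 of the 8099 of FGD5. Fragments that touch 2 genes stay unassigned, so the few counts of C10orf95 and OIP5 need not mean low expression. What the overlap did to these ratios was not tested.

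Hosts with more counts gave the other 3 shifts. For SH3RF3-AS1 the log2 ratio to SH3RF3 was -3.03 and -3.21 in labelled and -2.24 and -2.04 in unlabelled libraries, a difference of -0.98. For KRT10-AS1 it was 1.30 and 0.93 in labelled and 0.68 and -0.22 in unlabelled libraries (0.89), and for GLIPR1-AS1 it was -0.14 and -0.29 in labelled and -0.65 and -1.40 in unlabelled libraries (0.81). The labelled ratios were below the unlabelled ones for SH3RF3-AS1 and above them for KRT10-AS1 and GLIPR1-AS1. Without unlabelled replicate 2 the difference was -0.88 for SH3RF3-AS1, 0.44 for KRT10-AS1 and 0.43 for GLIPR1-AS1. With 2 libraries against 2, the two-sided exact permutation test has 6 arrangements and cannot give a p under 0.333, which is the p of all 6 pairs.

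Of 29 antisense RNAs listed as familiar from the literature, 17 were among the 211. None passed the test, 6 had a positive fold change, and their median was -0.18, against -0.08 without unlabelled replicate 2 and -0.32 without unlabelled replicate 1. TTN-AS1, which runs opposite the titin gene, had 13.8 and 14.6 CPM in labelled and 18.6 and 22.0 CPM in unlabelled libraries, which is -0.51 on the log2 scale (edgeR adjusted p = 0.308). MAPKAPK5-AS1 had 18.7 and 18.0 CPM in labelled and 13.7 and 13.6 CPM in unlabelled libraries, a log2 fold change of 0.42 (adjusted p = 0.369). The labelled libraries were the lower ones for TTN-AS1 and the higher ones for MAPKAPK5-AS1. NUTM2A-AS1 had 74.9 and 76.8 CPM in labelled and 81.3 and 122 CPM in unlabelled libraries, and was highest in unlabelled replicate 2. These 3 genes are examples chosen after their values were seen.

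Since the construct sits in the mitochondrial matrix, antisense RNAs whose host is on a fixed, incomplete list of genes for mitochondrial proteins were looked at apart, and 3 matched it. MRPL20-AS1, tail to tail with a mitochondrial ribosomal protein gene, had 29.3 and 30.3 CPM in labelled and 28.2 and 25.5 CPM in unlabelled libraries (log2 fold change 0.15). NNT-AS1, head to head with the nicotinamide nucleotide transhydrogenase gene, had 14.8 and 15.4 CPM in labelled and 14.9 and 23.1 CPM in unlabelled libraries (-0.31). SLC25A25-AS1, tail to tail with a mitochondrial carrier gene, had 38.1 and 37.3 CPM in labelled and 40.1 and 48.1 CPM in unlabelled libraries (-0.22). Labelled libraries were the higher ones for MRPL20-AS1, overlapped the unlabelled ones for NNT-AS1 and were the lower ones for SLC25A25-AS1. The hosts MRPL20, NNT and SLC25A25 had log2 fold changes of -0.03, -0.08 and 0.06, and none of the 6 genes passed the test. The list left out other mitochondrial hosts, seen afterwards, among them those of LYRM4-AS1 (0.73), CKMT2-AS1 (0.01), DGUOK-AS1 (-0.35), ECI1-AS1 (-0.26) and WARS2-AS1 (-0.24), given with the log2 fold change of the antisense RNA.

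In the other classes of non-coding RNA with the same count limit, no member passed the test either. The 96 LINC genes had a median log2 fold change of -0.16 with 31 positive, the 16 genes named -AS2 and above -0.16 with 3 positive, the 84 divergent transcripts (-DT) -0.04 with 39 positive, and the 7 -IT and -OT transcripts -0.29 with 0 positive. Without unlabelled replicate 2 these medians were -0.01, -0.15, 0.10 and -0.06 in the same order. Differences between the classes were not tested. LINC01355 came nearest to the threshold, with 14.3 and 12.5 CPM in labelled and 23.1 and 25.7 CPM in unlabelled libraries, a log2 ratio of -0.86 (edgeR adjusted p = 0.0590). Both of its labelled libraries were the lower ones. The other genes with the smallest p of each class were LINC00342 (-0.69), HOXA-AS3 (-0.36), HOXB-AS2 (-0.61), EOLA2-DT (-0.71), TMEM167B-DT (0.72), N4BP2L2-IT2 (-0.61) and ALMS1-IT1 (-0.79), with the log2 fold change of each in parentheses. In unlabelled replicate 2 the median stood above the gene mean by 0.18 in LINC genes, 0.20 in genes named -AS2 and above, 0.10 in -DT genes and 0.47 in -IT and -OT transcripts, beside 0.15 in the antisense RNAs.

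The promoters of the antisense RNAs are rich in CpG. RefSeq gave 187 windows for 157 of the 211, out of 35116 windows in its table. Their median was 25 CpG dinucleotides and 65.0% GC in 300 bases, against 14 CpG and 58.7% GC over all windows. Read on both strands, GGGCGG was found in 59.9% of the windows, against 45.0% of all windows, and TATAAA in 5.35%, against 11.5%. CCAAT was found in 32.6%, against 34.6%, and TGACGTCA, the cyclic AMP response element, in 5.35%, against 1.85%. A match of this kind is a description of the letters and not a bound site, and the limit on counts favours active promoters in these genes and not in the whole table.

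Windows were found for both genes in 140 pairs, and in 47 of them the antisense RNA and its host had windows that share bases, with a median of 201 bases and a range of 49 to 290. Of the 74 head to head pairs with windows, 39 shared bases. The antisense RNAs that share a window with the host had a median log2 fold change of -0.05 (19 of 47 positive), and those with separate windows -0.11 (32 of 93 positive). Antisense RNA and host had fold changes of the same sign in 25 of 46 tested pairs that share a window and in 42 of 93 that do not. HERPUD2-AS1, WNT5A-AS1 and NNT-AS1 shared 170, 189 and 49 bases with the window of their host.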

How the data were processed

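RNA was measured in 4 libraries, 2 labelled and 2 unlabelled, grouped by their titles. Per the file headers, the authors made whole-number fragment counts per gene with featureCounts 1.6.4 on GENCODE 44, over exons, with no strand option; multi-mapping fragments and fragments touching 2 genes were not assigned. Other values, the numbers of fragments by assignment status, stand in a second deposited table. Per the submitters' processing notes, STAR 2.7.9a aligned the reads to GRCh38, and DESeq2 1.42.0 was used. All 62700 identifiers were paired with symbols; coordinates are those of the count table, counted from 1.

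The test was the quasi-likelihood F test of edgeR 4.0.16 (TMM, filterByExpr) in R 4.3.3. Its p-values were adjusted by Benjamini-Hochberg over the 18973 genes kept, with 0.05 as threshold. CPM are TMM-scaled, except those of the marker genes and the sums over the antisense RNAs, which are per 1000000 assigned fragments. Effective library sizes were 8575757 and 10395665 in the labelled and 8979598 and 6627765 in the unlabelled libraries. Antisense to host ratios used counts plus 0.5. Scripts were tested on simulated data. Alternatives were DESeq2 1.42.0, other scaling and filters, thinning, other count limits, the replicate number as a block, and each library left out. Python 3.11.15, pandas 2.3.3 and matplotlib 3.10.9 were used for the rest.

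The genes, the lists and the rules were chosen with earlier results of these data known. The rule named every antisense RNA past the threshold (none), the 10 antisense RNAs with the highest CPM per kb, the 6 highest and 6 lowest log2 fold changes, the 6 largest shifts in the ratio to the host among pairs whose groups do not overlap, the 3 genes just inside and just outside the limit, those with mitochondrial hosts, and the 2 genes with the smallest p in each comparison list.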

Additional observations from a re-analysis of the deposited data

How the results depend on the processing

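With 2 libraries a group, an adjusted p above the threshold does not show that an antisense RNA did not differ, and low-count genes near 30 counts are the least precise. Under DESeq2 size factors, library sizes without mitochondrial genes, a CPM filter, thinning to the smallest library, other count limits and antisense RNAs with no shared exon base, 0 antisense RNAs were called and the median log2 fold change stayed below 0. Genes called over the whole table numbered 54, against 302 with no low-count filter, 2744 with library size alone and 58 to 3985 with 1 library left out. Antisense RNAs called numbered 0, against 2 with no low-count filter (MRTFA-AS1 and UCKL1-AS1, both lower), 39 with library size alone, all lower, and 0 to 46 with 1 library left out. Library size alone also moved the median of all genes to -0.37, that of the antisense RNAs to -0.46 and the percent positive to 4.74. With 1 library left out, the median log2 fold change of the antisense RNAs ranged between -0.17 and 0.01, the percent positive between 35.1 and 51.2, and the median difference of log2(antisense/host) between -0.23 and 0.0157. With a pseudocount of 5 the differences of C10orf95-AS1, OIP5-AS1 and FGD5-AS1 to their hosts were 1.13, -0.70 and 0.83. The causes were not tested.

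The replicate numbers are not said to pair the libraries, and deviations of same-numbered libraries had a correlation of -0.07 across 18973 genes. With the replicate number as a block, edgeR called 236 of the 18973 genes tested. Of the 211 antisense RNAs it called 2, MRTFA-AS1 and UCKL1-AS1, both lower (edgeR adjusted p = 0.0223 and 0.0481). The median log2 fold change of the antisense RNAs was then -0.11.

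Of 635 values for the log2 fold changes of named genes and hosts under the alternatives, 534 kept direction and call, 62 passed the threshold in the same direction, and 39 changed sign. With library size alone the sign changed for WNT5A-AS1 (-0.23), THAP9-AS1 (-0.25), MRPL20-AS1 (-0.21), SMARCA5-AS1 (-0.13), C10orf95-AS1 (-0.12), OIP5-AS1 (-0.35), KRT10-AS1 (-0.12), GLIPR1-AS1 (-0.28), GAS5 (-0.18), SH3RF3 (-0.32) and SLC25A25 (-0.29). THUMPD3-AS1, near 0, changed sign with no low-count filter (0.0218), with the replicate block (0.00551) and thinned (0.00369), and ADGRL1 and MRPL20 did with no low-count filter (0.00223 and 0.00345). With 1 library left out, the log2 fold change of these genes ranged as follows: WNT5A-AS1 -0.0538 to 0.31, FGD5-AS1 -0.19 to 0.0952, THAP9-AS1 -0.040 to 0.30, THUMPD3-AS1 -0.20 to 0.25, OIP5-AS1 -0.0842 to 0.14, KRT10-AS1 -0.0219 to 0.64, GLIPR1-AS1 -0.11 to 0.35, NNT-AS1 -0.58 to 0.0239, LYRM4 -0.22 to 0.0998, SH3RF3 -0.13 to 0.27, MRTFA -0.21 to 0.0203, FAM13A -0.18 to 0.14, ADGRL1 -0.12 to 0.12, MRPL20 -0.0983 to 0.0730, NNT -0.20 to 0.0920 and SLC25A25 -0.0523 to 0.23, which spans 0 in each. The causes were not tested.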
